A study of Sus scrofa with 13 samples.

Results

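The loin weight effect was examined over both sire breeds together, in the longissimus lumborum muscle of 13 female pigs aged 6 months. The high loin weight groups were 3 Hampshire pigs (8, 9 and 10) and 4 Pietrain pigs (1, 2, 6 and 7). The low loin weight groups were 3 Hampshire pigs (1, 2 and 3) and 3 Pietrain pigs (3, 5 and 8). The 13 libraries are all libraries of the series, and 12831 of the 25322 genes counted passed the expression filter and were tested. The pigs were described as unrelated and had been picked from a larger population for extreme loin weight, so the groups do not describe an average pig of either breed. Only the 2 breeds and 1 muscle at 1 age were sampled. Total counts ranged from 11312755 to 20134612 per pig. Each gene was fitted with breed as a covariate and loin weight as the second term, so that a single log2 fold change of high against low loin weight described both breeds. The direction in each breed was read from a second fit with a separate mean for each of the 4 groups, and values per pig are CPM, counts scaled to library size, after TMM normalisation. DEGs had a Benjamini-Hochberg adjusted p under 0.05 with at least a 1.2-fold difference.

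The loin is a fast-twitch, largely glycolytic muscle. Its mass reflects the number and girth of its fibres, and girth follows the balance between protein synthesis, driven by IGF and mTOR signalling, and breakdown by the ubiquitin-proteasome and autophagy systems. Myostatin and related ligands restrain growth through SMAD2 and SMAD3, whereas BMP ligands act through SMAD1 and SMAD5. Fibres sit in a collagen-rich matrix made by fibroblasts and share the tissue with vessels, immune cells and fat cells, all of which contribute RNA to a muscle sample. In bulk tissue, fewer cells of a type and less RNA per cell cannot be told apart.

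No gene was called in the additive fit by edgeR's quasi-likelihood test (0 higher and 0 lower, or 0% of genes tested), the smallest adjusted p being 0.0671. The unadjusted p was under 0.05 for 2903 genes, 22.6% of those tested, with 1282 higher (9.99%) and 1621 lower (12.6%) in the pigs with higher loin weight. In 2742 of these the sign was the same in both breeds, 1244 being higher (9.7%) and 1498 lower (11.7%), and in 161 it was opposite. Over all genes tested, 7265 had the same sign in both breeds (3661 higher, 28.5%, and 3604 lower, 28.1%) and 5566 had opposite signs. A difference of at least 1.2-fold in each breed was held by 1499 genes that were higher (11.7%) and 1111 that were lower (8.66%). The median absolute log2 fold change was 0.51 in Hampshire and 0.24 in Pietrain.

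The count of DEGs differed between settings. DESeq2 with the same terms called 843 genes, 821 of them with the same direction in both breeds, and limma voom with sample quality weights called 757, of which 742 had the same direction. The mean of the breed effects, tested in the fit with 4 group means, gave 1375, of which 1150 had the same direction. Of all genes tested, DESeq2 called 2.2% higher and 4.2% lower with the same direction in both breeds, limma voom 2.61% and 3.17%, and the mean of the breed effects 2.66% and 6.31%. That fit leaves a difference between the breeds out of its residual, whereas the additive fit counts it as spread. The part of this in the counts was not tested. The 3 settings shared 534 genes with the same direction in both breeds, 4.16% of genes tested, 184 higher and 350 lower. Among single pigs left out, Pietrain high pig 6 changed the count of the additive fit most. Without it edgeR called 357 genes, 189 higher and 168 lower. Of these, 356 had the same direction in both breeds (1.47% of genes tested higher and 1.31% lower). The smallest adjusted p was 0.0467 without this pig, against 0.0671 with all pigs, so every call lay just under the threshold of 0.05. This pig had the lowest mean correlation with its own group, 0.946, against 0.951 to 0.963 for the other pigs of the group, and leaving out pigs 6 and 7 together again gave 0 DEGs. Leaving out any other pig gave between 0 and 3 DEGs.

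**Figure D1:**
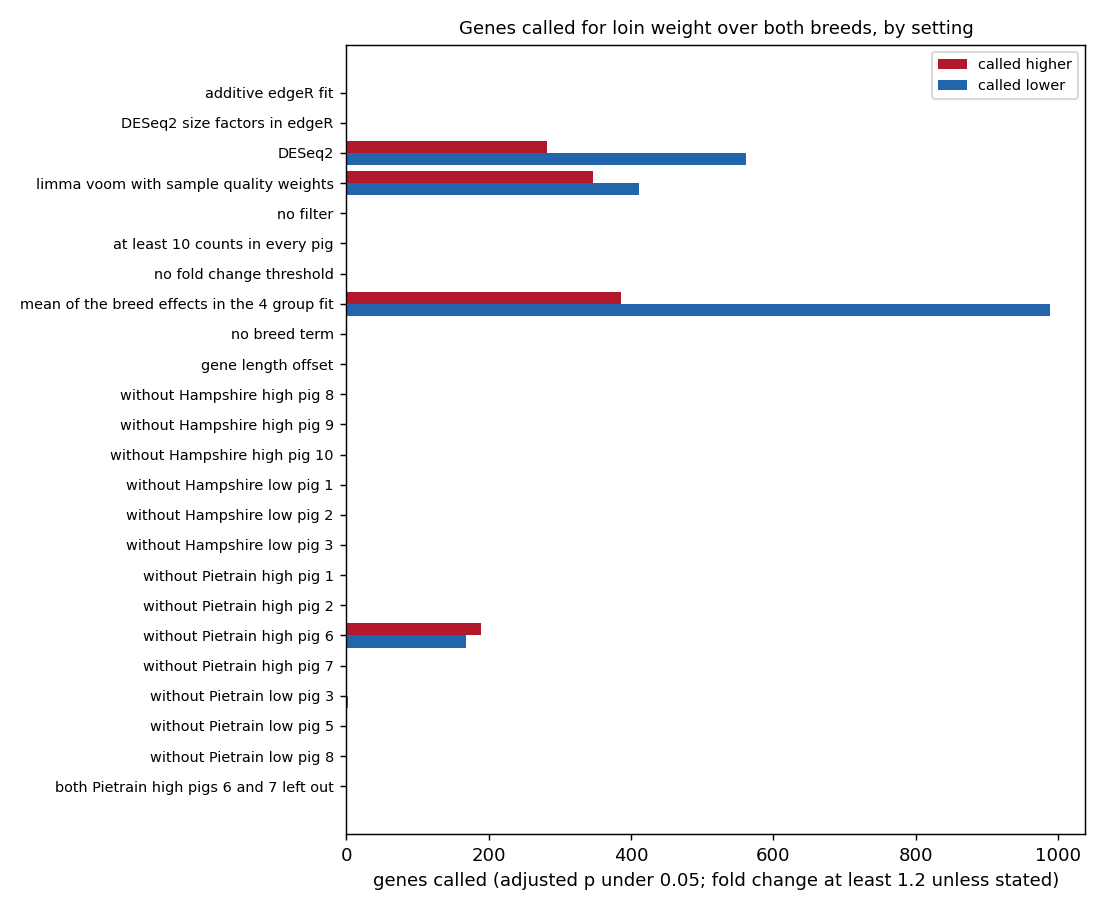
Number of genes called higher (red) and lower (blue) in pigs with higher loin weight, over both breeds, under each setting. The additive edgeR fit called 0 genes, and the bars above 3 genes belong to DESeq2, limma voom, the mean of the breed effects and the fit without Pietrain high pig 6.

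The groups were apart, with no overlap within either breed, for 79 genes that were higher (0.616%) and 103 that were lower (0.803%) in the pigs with higher loin weight. For 93 genes (0.725%) the groups were apart in both breeds but in opposite directions. Within a single breed, in either direction, 5764 of the 12831 genes tested were apart in Hampshire and 603 in Pietrain. In the fit with 4 group means, edgeR called 2541 genes in Hampshire and 0 in Pietrain. Whether more genes were apart in both breeds than the counts within each breed would give was not tested. Of the 182 genes apart in the same direction, 99 were among the genes shared by the 3 settings above and 64 were called without Pietrain high pig 6. These sets were drawn from the same counts of the same pigs, so their overlap is not independent evidence. An exact permutation test, two-sided and permuting loin weight within breed over 700 regroupings, cannot give a p below 0.00143. That p was reached by 88 genes, and the smallest Benjamini-Hochberg adjusted p of this test was 0.198.

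**Figure D2:**
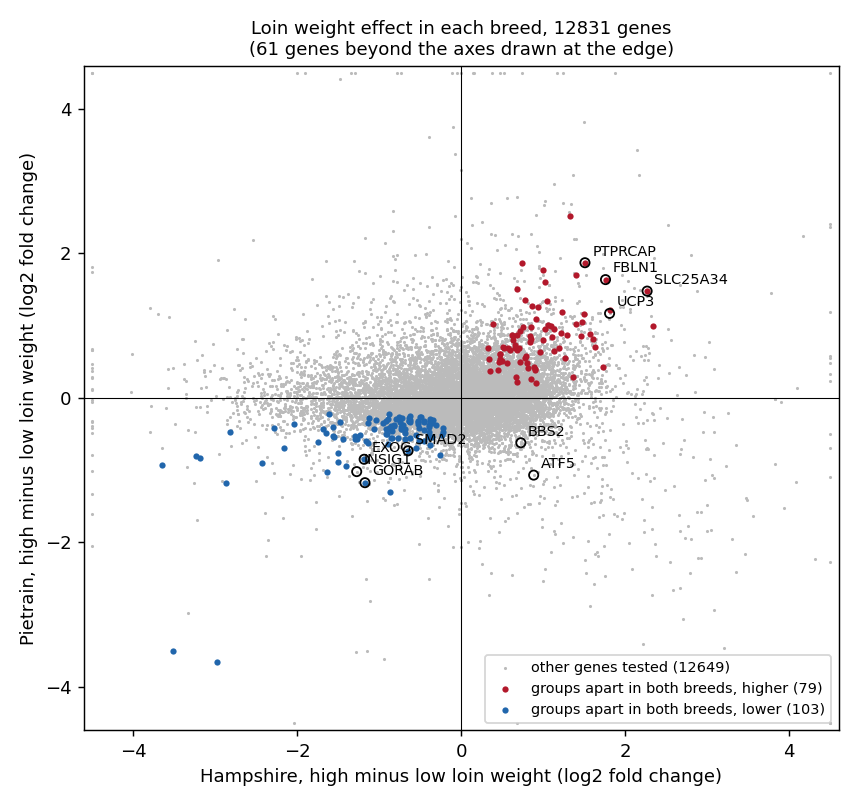
Log2 fold change of high against low loin weight in Hampshire (x axis) and Pietrain (y axis) for the 12831 genes tested. Red and blue points are the 79 and 103 genes whose groups were apart in both breeds, open circles mark named genes, and 61 genes beyond the axes are drawn at the edge. BBS2 and ATF5 lie in the quadrant where the breeds differ in sign.

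The 2 genes with the smallest p had no symbol in the tables used and are outside the rule for named genes, having been singled out after their values were seen. ENSSSCG00000027936 lies on the unplaced scaffold JH118785.1, at 8572 to 25962 of Sscrofa10.2. Its level was 17.4, 36.3 and 29.9 CPM in the Hampshire high pigs, against 10.1, 7.39 and 12.1 CPM in the low pigs. Pietrain levels were 9.12, 6.99, 10.0 and 9.05 CPM in the high pigs and 4.43, 3.32 and 4.03 CPM in the low pigs. All high pigs were thus above all low pigs of their breed, at a log2 fold change of 1.33 ± 0.19 (SE). ENSSSCG00000025475, which had no coordinates, was lower at a log2 fold change of -3.51 ± 0.56 (SE), -3.52 in Hampshire and -3.51 in Pietrain, and was listed at 0 in 2 of the 3 Hampshire high pigs. Their adjusted p was 0.0671 and 0.0966 in the additive edgeR fit. The symbols below were drawn from the 12 genes per direction with the smallest p and at least a 1.2-fold difference in each breed, the genes apart in both breeds with the largest effects, the leading members of gene lists, and genes named by the study. None of them passed the threshold in the additive edgeR fit (adjusted p of 0.115 or higher), so each log2 fold change below is an estimate given with its SE.

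Genes of mitochondrial fuel use were among those higher in both breeds. SLC25A34, a mitochondrial solute carrier (chromosome 6, 69390944 to 69394891), had the smallest p of all genes with a symbol. Its level was 14.3, 8.45 and 17.8 CPM in Hampshire high pigs and 1.53, 4.91 and 1.89 CPM in low pigs. The Pietrain values were 6.66, 10.1, 4.35 and 10.3 CPM in high pigs and 3.04, 1.98 and 3.43 CPM in low pigs. The groups were apart in both breeds, and Pietrain high pig 6 was the lowest of its group. The log2 fold change over both breeds was 1.85 ± 0.33 (SE; edgeR adjusted p = 0.115), with 2.27 in Hampshire and 1.48 in Pietrain. The difference between these breed effects did not pass the test (edgeR adjusted p = 0.489).

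UCP3, the muscle uncoupling protein of the inner mitochondrial membrane (chromosome 9, 9166711 to 9179299), differed by 1.47 ± 0.29 on the log2 scale. It stood at 176, 321 and 264 CPM in Hampshire high pigs and at 42.3, 85.7 and 89.3 CPM in low pigs. In Pietrain high pigs it was 26.6, 53.4, 76.3 and 107 CPM, and in low pigs 29.5, 27.9 and 30.6 CPM. Pig 1 of the Pietrain high group lay below the 3 low pigs, while the other 3 high pigs lay above them.

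Several lipid handling genes had the same direction. PNPLA2, the lipase that starts triglyceride breakdown, differed by 1.08 ± 0.26 on the log2 scale. CPT1A, which commits fatty acids to mitochondrial oxidation, differed by 1.34 ± 0.39. ANGPTL4, a secreted inhibitor of lipoprotein lipase, differed by 1.56 ± 0.40. Of 27 tested genes for fatty acid oxidation and uncoupling, 12 were higher and 5 lower in both breeds, 8 were higher and 2 lower at an unadjusted p under 0.05, and the median log2 fold change was 0.16 against -0.00283 over all genes tested. That median ranged from 0.0654 to 0.212 with 1 pig left out. DESeq2 called 4 of the list higher and 0 lower with the same direction in both breeds, against 2.2% and 4.2% of all genes, and edgeR without Pietrain high pig 6 called 2 higher, against 1.47%. The adipocyte list holds PLIN1, the coat protein of lipid droplets, at 1.86 ± 0.48, LIPE, hormone-sensitive lipase, at 1.27 ± 0.34, and CIDEC, a droplet fusion protein, at 1.43 ± 0.49 (0.90 without Hampshire high pig 9). Of its 12 tested members, 7 were higher and 0 lower in both breeds, and 5 had opposite signs. In the additive fit 9 were higher and 3 lower, with a median of 0.72. The summed level of the list was 330 to 561 CPM in Hampshire high pigs and 382 to 537 CPM in low pigs. In Pietrain it was 371 to 816 against 515 to 605 CPM. Its mean level overlapped between the groups in both breeds: 3.02 to 4.22 and 2.73 to 3.29 log2 CPM in Hampshire high and low pigs, 2.57 to 3.70 and 2.63 to 3.04 in Pietrain. ADIPOQ, LEP and FABP4, which define fat cells, matched no gene of the tables by symbol, RETN had 2 reads in all, and the part of fat cells in these values was not tested.

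**Figure D3:**
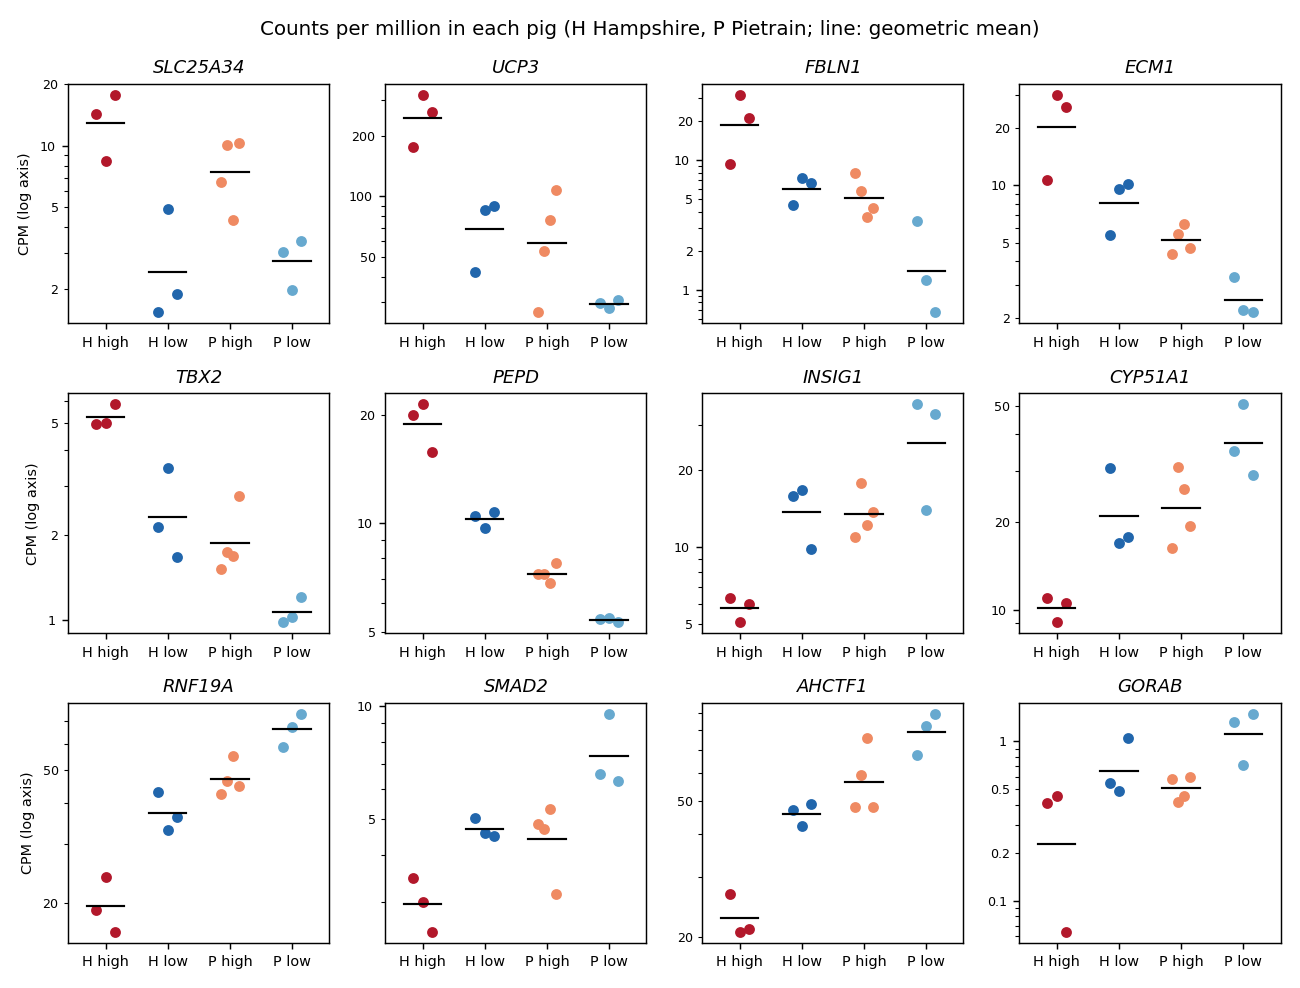
CPM after TMM normalisation (log axis) of 12 named genes in each of the 13 pigs, by breed and loin weight group; the line is the geometric mean of a group. The first 6 panels show genes that were higher in pigs with higher loin weight in both breeds and the last 6 show genes that were lower. Groups overlap within Pietrain for UCP3, INSIG1, CYP51A1 and AHCTF1.

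Most extracellular matrix genes were higher in both breeds. Of 38 tested members, 31 were higher and 0 lower in both breeds, 20 were higher and 0 lower at an unadjusted p under 0.05, and the median log2 fold change was 0.73, with 1.03 in Hampshire and 0.45 in Pietrain. DESeq2 called 9 of them higher, against 2.2% of all genes, and edgeR without Pietrain high pig 6 called 2, against 1.47%. FBLN1, fibulin-1 of elastic fibres and basement membranes (chromosome 5, 1071720 to 1158793), was at 9.33, 32.0 and 21.2 CPM in Hampshire high pigs and at 4.47, 7.29 and 6.66 CPM in low pigs. Among Pietrain pigs it was at 7.89, 5.73, 3.63 and 4.25 CPM in high pigs and at 3.37, 1.19 and 0.672 CPM in low pigs. High and low pigs were apart in both breeds, and the effect was close in size in both, 1.76 ± 0.50 in Hampshire and 1.64 ± 0.52 in Pietrain (log2 fold change ± SE).

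ECM1, a secreted glycoprotein that binds matrix components, was likewise apart in both breeds. Its level was 10.7, 30.0 and 25.8 CPM in Hampshire high pigs against 5.45, 9.58 and 10.16 CPM in low pigs. In Pietrain it was 4.34, 5.52, 6.23 and 4.70 CPM against 3.28, 2.22 and 2.15 CPM. Its log2 fold change over both breeds was 1.21 ± 0.25. FBLN2, fibulin-2, differed by 0.89 ± 0.26, THBS4, a thrombospondin of tendon and muscle matrix, by 0.95 ± 0.28, and MGP, the inhibitor of matrix calcification, by 1.03 ± 0.31 (0.68 without Hampshire high pig 9). The THBS4 effect was 0.94 in Hampshire and 0.96 in Pietrain. MGP differed by 1.72 in Hampshire and 0.44 in Pietrain, and the groups overlapped in Pietrain.

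Collagen processing genes gave a mixed count. Of 19 tested, 12 were higher and 3 lower in both breeds, and 5 were higher at an unadjusted p under 0.05. ITIH5, which stabilises hyaluronan in the matrix, differed by 0.76 ± 0.19, and MMP2, a gelatinase, by 0.77 ± 0.28. PCOLCE and PCOLCE2, enhancers of procollagen cleavage, differed by 1.02 ± 0.28 and 1.06 ± 0.36. The PCOLCE2 effect was 2.21 in Hampshire and 0.06 in Pietrain, and the difference passed the test (edgeR adjusted p = 0.00998). PEPD, the dipeptidase that releases proline from collagen fragments, was among the 12 genes with the smallest p. Its level was 20, 21.4 and 15.8 CPM in Hampshire high pigs and 10.5, 9.72 and 10.7 CPM in low pigs. Pietrain levels were 7.24, 7.20, 6.82 and 7.75 CPM in high pigs and 5.42, 5.46 and 5.31 CPM in low pigs. Replicates were tight in both breeds and the groups were apart, at a log2 fold change of 0.65 ± 0.14.

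Most fibroblast markers were higher in both breeds. Of 11 tested, 8 were higher and 0 lower in both breeds, with a median of 0.52 (1.06 in Hampshire and 0.17 in Pietrain). DESeq2 called 1 higher, against 2.2% of all genes, and edgeR without Pietrain high pig 6 called 0, against 1.47%. DCN, decorin, differed by 0.82 ± 0.29, with 1.55 in Hampshire and 0.21 in Pietrain, and PI16, a marker of adventitial fibroblasts, by 0.92 ± 0.35. The summed level of the list was 964 to 2129 CPM in Hampshire high pigs and 382 to 721 CPM in low pigs, and 396 to 760 against 419 to 615 CPM in Pietrain, where the groups overlapped. The part of fibroblast number in the matrix values was not tested.

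Most complement and immune genes were also higher in both breeds. Of 16 tested complement genes, 11 were higher and 2 lower in both breeds, and 9 were higher and 0 lower at an unadjusted p under 0.05. The median was 0.86, with 1.16 in Hampshire and 0.54 in Pietrain. The mean level of the list overlapped in Pietrain, at 2.71 to 3.28 log2 CPM in high pigs and 2.40 to 2.95 in low pigs. DESeq2 called 8 higher, against 2.2% of all genes, and edgeR without Pietrain high pig 6 called 2 of 15, against 1.47%. C1R, the protease that starts the classical pathway, was 71.0, 81.3 and 99.8 CPM in Hampshire high pigs and 22.0, 39.9 and 42.7 CPM in low pigs. The Pietrain values were 22.6, 22.2, 29.8 and 28.0 CPM in high pigs and 21.2, 17.0 and 14.4 CPM in low pigs. The groups were apart in both breeds, at 0.89 ± 0.20 on the log2 scale, although in Pietrain high pig 2 and low pig 3 were only about 1 CPM apart. SERPING1, the C1 inhibitor, differed by 0.93 ± 0.25, CLU, clusterin, by 1.02 ± 0.27, and CFD, complement factor D, which fat cells also secrete, by 1.08 ± 0.30.

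Of 15 tested macrophage markers, 14 were higher and 0 lower in both breeds, with a median of 0.76 (1.09 in Hampshire and 0.65 in Pietrain). C1QA, a chain of complement C1q made by macrophages, differed by 1.06 ± 0.31, TYROBP, a signalling adaptor of myeloid cells, by 1.01 ± 0.27, IFI30, a lysosomal thiol reductase, by 1.10 ± 0.32, and LAPTM5, a lysosomal protein of blood cells, by 0.70 ± 0.19. For LAPTM5 the groups were apart in both breeds. The summed level of the list was 146 to 268 CPM in Hampshire high pigs and 62.3 to 126 CPM in low pigs. Among Pietrain pigs it was 35.4 to 142 CPM in high pigs and 38.6 to 51.0 CPM in low pigs, so the Pietrain groups overlapped, with high pig 6 at the top. CD163 matched no gene by symbol. DESeq2 called 5 members higher with the same direction in both breeds, the mean of the breed effects 4 and limma voom 1. EdgeR without pig 6 called 0. In that order these settings called 2.2%, 2.66%, 2.61% and 1.47% of all genes higher. The part of macrophage number was not tested.

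Antigen presentation genes were higher in both breeds for 11 and lower for 1 of 13 tested. Their median was 0.59, with 0.77 in Hampshire and 0.28 in Pietrain. The mean level of the list overlapped in Pietrain, at 2.99 to 3.69 log2 CPM in high pigs and 2.64 to 3.51 in low pigs. SLA-DMA and SLA-DMB, the chains of the class II peptide exchanger, differed by 0.78 ± 0.21 and 0.72 ± 0.24, and ICOSLG, a costimulatory ligand for T cells, by 0.94 ± 0.22. PTPRCAP, a partner of the lymphocyte phosphatase CD45, was apart in both breeds at a low level. It was 3.20, 2.55 and 3.52 CPM in Hampshire high pigs and 0.551, 1.36 and 1.33 CPM in low pigs. In Pietrain it was 0.507, 0.699, 0.779 and 1.10 CPM in high pigs, and 0.328, 0.317 and 0 CPM in low pigs. Of 7 tested T and B lymphocyte markers, 5 were higher and 0 lower in both breeds. CD8A, a coreceptor of cytotoxic T cells, differed by 0.84 ± 0.36. MS4A1, which marks B cells, had 34 reads over all pigs.

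Some genes of cholesterol synthesis were lower in both breeds. INSIG1, which holds the sterol sensor in the endoplasmic reticulum and is itself a target of SREBP (chromosome 18, 2896505 to 3019640), was among the 12 genes with the smallest p that were lower. Its level was 6.33, 5.09 and 6.01 CPM in Hampshire high pigs and 15.9, 16.6 and 9.81 CPM in low pigs. Pietrain levels were 10.9, 17.8, 12.2 and 13.7 CPM in high pigs and 36.1, 14.0 and 32.9 CPM in low pigs. Only Pietrain low pig 5 and high pig 2 crossed, and the log2 fold change was -1.14 ± 0.22 (-1.28 in Hampshire and -1.02 in Pietrain). HMGCS1, which makes HMG-CoA, was apart in both breeds: 23.0, 16.7 and 16.0 against 36.8, 32.5 and 35.4 CPM in Hampshire, and 46.9, 53.9, 62.8 and 35.7 against 69.5, 74.6 and 67.6 CPM in Pietrain. Its log2 fold change was -0.69 ± 0.15.

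CYP51A1, lanosterol demethylase, was 11, 9.09 and 10.6 CPM in Hampshire high pigs and 30.7, 16.9 and 17.7 CPM in low pigs, at a log2 fold change over both breeds of -0.89 ± 0.20. The Pietrain values were 16.3, 30.8, 26 and 19.4 CPM in high pigs and 35.1, 50.7 and 29.0 CPM in low pigs, where high pig 2 lay above low pig 8. Over the list of 21 tested genes, 9 were lower and 2 higher in both breeds and 10 had opposite signs. At an unadjusted p under 0.05, 6 were lower and 0 higher. The median was only -0.09, with -0.03 in Hampshire and -0.20 in Pietrain. The mean level overlapped in Hampshire, at 2.924 to 3.205 log2 CPM in high pigs and 2.995 to 3.336 in low pigs. In Pietrain it was apart, at 3.164 to 3.52 against 3.581 to 3.77. DESeq2, limma voom, the mean of the breed effects and edgeR without Pietrain high pig 6 each called 3 members lower and 0 higher with the same direction in both breeds, against 1.31 to 6.31% of all genes called lower.

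Most ubiquitin ligases and nuclear transport genes were lower in both breeds. Of 37 tested ubiquitin ligases, 26 were lower and 1 higher in both breeds, 21 were lower and 1 higher at an unadjusted p under 0.05, and the median log2 fold change was -0.52 (-0.89 in Hampshire and -0.17 in Pietrain). DESeq2 called 17 of them lower with the same direction, against 4.2% of all genes, and edgeR without Pietrain high pig 6 called 7, against 1.31%. The mean level of the ligases was 4.05 to 4.27 log2 CPM in Hampshire high pigs and 4.98 to 5.08 in low pigs. In Pietrain it was 5.14 to 5.43 against 5.32 to 5.52, so the groups overlapped. Long genes were lower in the Hampshire high libraries: over the 9975 genes with a known span, the slope of a pig's log2 CPM, relative to the gene's mean over pigs, on log2 gene span was -0.150 to -0.122 in Hampshire high pigs and -0.0135 to 0.00515 in low pigs, and -0.00523 to 0.104 against 0.05 to 0.0775 in Pietrain. With a gene length offset the median of the ubiquitin ligases was -0.36 and that of nuclear transport genes -0.26. The part of gene length in these values was not tested. RNF19A, a RING ligase (chromosome 4, 39576526 to 39650587), was 19.1, 23.9 and 16.4 CPM in Hampshire high pigs and 43.1, 33.2 and 36.3 CPM in low pigs. Among Pietrain pigs it was 42.4, 46.4, 55.0 and 44.7 CPM in high pigs and 58.8, 67.1 and 73.5 CPM in low pigs. High and low pigs were apart in both breeds, at -0.69 ± 0.14 on the log2 scale.

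RBBP6, a RING ligase that also binds the RNA processing machinery, differed by -0.63 ± 0.14. ITCH, a HECT ligase, differed by -0.95 ± 0.24, with -1.67 in Hampshire and -0.33 in Pietrain, and FBXO11, an F-box protein that selects targets for ubiquitylation, by -0.77 ± 0.17, with -1.25 and -0.35. For both, the difference between breeds passed the test (edgeR adjusted p = 0.0201 and 0.0346). USP15, which removes ubiquitin, was apart in both breeds and similar in size, -0.69 in Hampshire and -0.56 in Pietrain.

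Of 28 tested nuclear transport genes, 20 were lower and 1 higher in both breeds, and 13 were lower and 0 higher at an unadjusted p under 0.05, with a median of -0.37. XPO1, the main protein exporter, differed by -0.65 ± 0.17, NUP153, a nucleoporin of the nuclear basket, by -0.49 ± 0.14, and TNPO1, an importin, by -0.96 ± 0.31. XPOT, the tRNA exporter, differed by -1.02 ± 0.22 and AHCTF1, a nucleoporin needed to rebuild nuclear pores, by -0.72 ± 0.16. For XPOT the difference between the breeds passed the test (-1.65 in Hampshire and -0.48 in Pietrain; edgeR adjusted p = 0.0405).

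Chromatin and transcription genes showed the same sign less evenly. The list of histone lysine methyltransferases had 28 tested entries that cover 26 genes, some being entered more than once. Of the entries, 13 were lower and 2 higher in both breeds, and 12 were lower at an unadjusted p under 0.05. The median over entries was -0.76 in Hampshire but -0.01 in Pietrain. SETD2, which trimethylates H3K36, was apart in both breeds at -0.57 ± 0.13, as were SETD5 at -0.48 ± 0.13 and KMT5A, the H4K20 methyltransferase, at -0.59 ± 0.15. SETD7, an H3K4 methyltransferase, differed by -2.05 in Hampshire and -0.25 in Pietrain (edgeR adjusted p of the difference 0.0117). Mediator subunits were split, with 8 of 28 higher and 8 lower in both breeds. MED13, of the Mediator kinase module, was 21.7, 17.9 and 14.1 CPM in Hampshire high pigs and 44.0, 30.2 and 43.7 CPM in low pigs. In Pietrain it was 65.8, 55.7, 50.2 and 41.5 CPM in high pigs and 71.0, 90.2 and 84.0 CPM in low pigs. Its groups were apart in both breeds, at -0.86 ± 0.17. MED1 differed by -0.73 ± 0.23 and MED25 by 0.61 ± 0.21. Of 32 tested splicing factors, 19 were lower and 2 higher in both breeds, with a median of -0.21. HNRNPA2B1, an RNA-binding splicing regulator, differed by -0.45 ± 0.15. AQR, a helicase of the spliceosome, was apart in both breeds, at -1.45 in Hampshire and -0.57 in Pietrain.

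**Figure D4:**
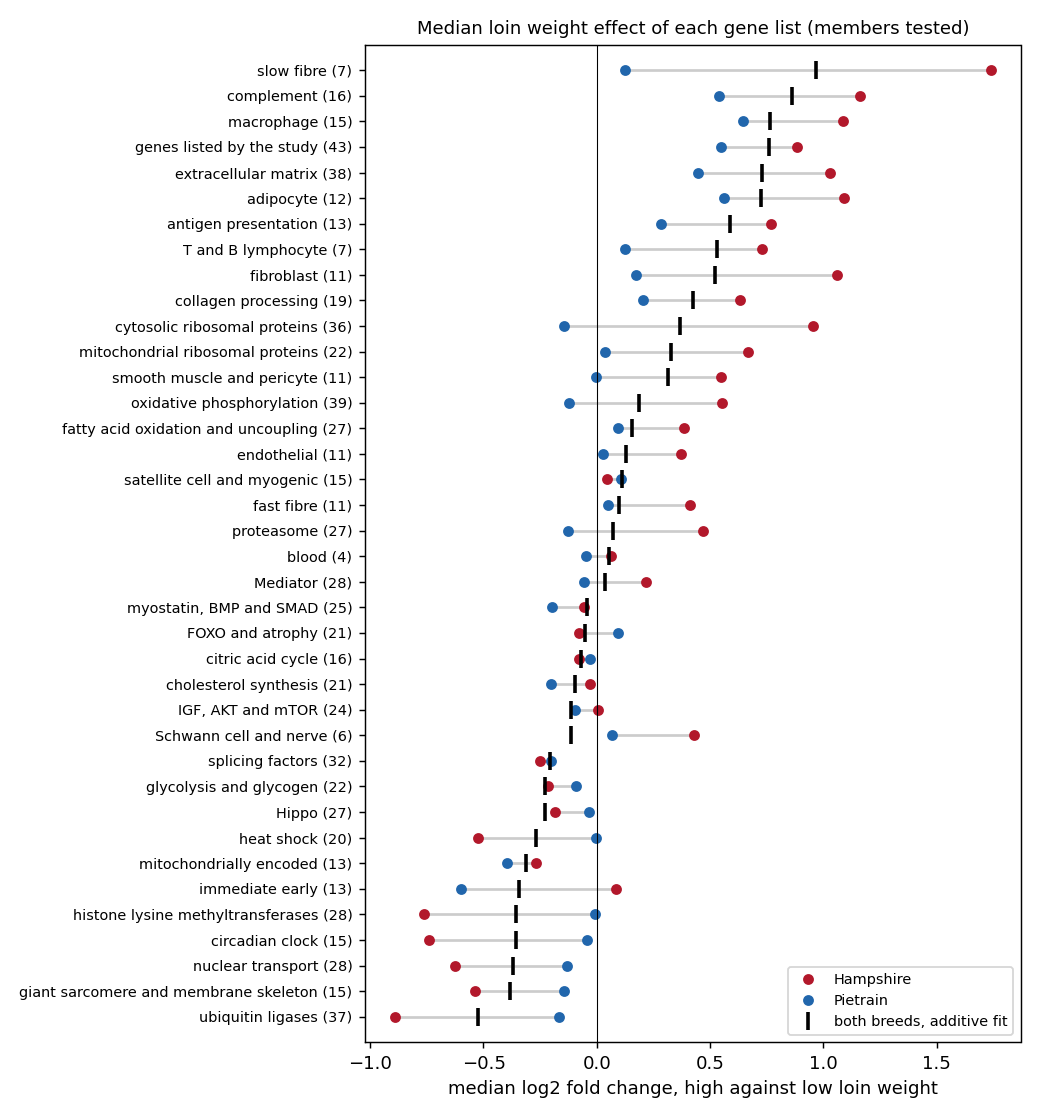
Median log2 fold change of high against low loin weight for 37 gene lists and for the genes listed by the study. Values are for Hampshire (red), Pietrain (blue) and both breeds in the additive fit (black mark). Numbers are the members tested, and count entries for histone lysine methyltransferases (28 entries, 26 genes) and Hippo (27 entries, 25 genes). Matrix, complement and macrophage lists lie above 0 in both breeds, ubiquitin ligases, nuclear transport and mitochondrially encoded genes below 0 in both, and cytosolic ribosomal protein and oxidative phosphorylation lists on different sides in each breed.

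Growth signalling lists had medians closer to 0, with some SMADs and BMP receptors lower. Of 25 tested genes of myostatin, BMP and SMAD signalling, 6 were higher and 10 lower in both breeds, 2 were higher and 7 lower at an unadjusted p under 0.05, and the median was -0.04. SMAD2, the carrier of myostatin and activin signals (chromosome 1, 106901465 to 106991088), had almost the same effect in each breed. It was 3.47, 3.00 and 2.49 CPM in Hampshire high pigs and 5.02, 4.57 and 4.48 CPM in low pigs. Pietrain levels were 4.85, 4.68, 5.32 and 3.15 CPM in high pigs and 6.57, 9.5 and 6.32 CPM in low pigs. The groups were apart in both breeds, at -0.65 in Hampshire and -0.73 in Pietrain, and -0.69 ± 0.18 over both (edgeR adjusted p = 0.115, and 0.0487 without Pietrain high pig 6).

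SMAD5, which carries BMP signals, differed by -0.54 ± 0.14, BMPR2, the type II BMP receptor, by -0.69 ± 0.16, and BMPR1A, a type I receptor, by -0.60 ± 0.16. With the same direction in both breeds, DESeq2 called 4 members lower and 0 higher, as did the mean of the breed effects. EdgeR without Pietrain high pig 6 also called 4 lower and 0 higher, and limma voom 4 lower and 1 higher. Over all genes tested, DESeq2 called 4.2% lower and the mean of the breed effects 6.31%. The share was 1.31% without pig 6 and 3.17% by limma voom, which called 2.61% higher. Of 24 tested IGF, AKT and mTOR genes, 7 were higher and 9 lower in both breeds. IGFBP6 and IGFBP4, binding proteins that limit IGF action, differed by 1.09 ± 0.27 and 0.65 ± 0.20. PIK3CA, a catalytic subunit of PI3-kinase, differed by -0.62 ± 0.20, and RICTOR, which defines mTOR complex 2, by -2.62 in Hampshire and -0.16 in Pietrain (edgeR adjusted p of the difference 0.00888).

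The Hippo pathway list had 27 tested entries that cover 25 genes, some being entered more than once. Of the entries, 6 were higher and 11 lower in both breeds, and 1 was higher and 5 lower at an unadjusted p under 0.05. The median over entries was -0.23, turning to 0.10 without Pietrain low pig 3. LATS1, the kinase that restrains YAP, differed by -0.92 ± 0.26 and AMOT, an angiomotin that holds YAP in the cytoplasm, by -0.58 ± 0.18. Of 21 tested FOXO and atrophy genes, 4 were higher and 4 lower in both breeds. NR3C1, the glucocorticoid receptor, differed by -0.92 ± 0.22, with -1.58 in Hampshire and -0.35 in Pietrain (edgeR adjusted p of the difference 0.0259), and GABARAPL1, an autophagosome protein, by 0.69 ± 0.18. Among 15 tested satellite cell and myogenic genes, 6 were higher and 4 lower in both breeds. MEF2A, a muscle transcription factor, differed by -0.65 ± 0.22 and SIX4 by -0.80 ± 0.30. MYF5, which marks muscle progenitors, differed by 1.27 ± 0.48 at a level of at most 3.09 CPM.

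Transcripts of the mitochondrial genome were lower in both breeds. All 13 had a log2 fold change below 0, 11 were lower in both breeds, 8 were lower at an unadjusted p under 0.05, and the median was -0.31 (-0.27 in Hampshire and -0.40 in Pietrain). Their mean level was 12.6 to 12.9 log2 CPM in Hampshire high pigs against 13.1 to 13.3 in low pigs, and 12.3 to 12.7 against 12.9 to 13.3 in Pietrain, so the groups were apart in both breeds. ND4L and ND4, subunits of complex I, differed by -1.05 ± 0.23 and -0.55 ± 0.18, ND5 by -0.74 ± 0.20, and ATP8, a subunit of ATP synthase, by -0.69 ± 0.15. ATP8 was 1914, 1796 and 2108 CPM in Hampshire high pigs and 4054, 3317 and 3590 CPM in low pigs, and in Pietrain 2470, 3236, 2944 and 2552 CPM against 3176, 4808 and 3886 CPM, where high pig 2 lay above low pig 3. ATP8 and ND4L overlap their neighbours ATP6 and ND4 on the same strand, so the split of reads among them is uncertain. Mitochondrial reads took 12.5 to 17.3% of counts in Hampshire high pigs and 19.0 to 20.2% in low pigs, and 12 to 16.8% against 16.1 to 17.8% in Pietrain, where the ranges overlapped. DESeq2 called 4 of the list lower, against 4.2% of all genes, and edgeR without Pietrain high pig 6 called 3, against 1.31%. With the gene length offset the median was -0.53.

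Nuclear genes of oxidative phosphorylation did not share that direction. Of 39 tested, 14 were higher, 2 lower and 23 opposite between the breeds, with medians of 0.55 in Hampshire and -0.12 in Pietrain. COX6A2, the muscle form of a complex IV subunit, differed by 0.74 ± 0.28 and NDUFV1, of complex I, by 0.50 ± 0.20. Cytosolic ribosomal proteins were likewise split, with 10 of 36 higher in both breeds and 26 opposite, at medians of 0.96 and -0.14. Their median over both breeds was 0.37, and 0.18 with the gene length offset, and the part of gene length was not tested. RPS9 differed by 0.61 ± 0.18 and RPLP2 by 0.66 ± 0.22, and many ribosomal protein genes have pseudogene copies that can take or lend reads. Of 22 mitochondrial ribosomal proteins, 12 were higher and 1 lower in both breeds, and 8 were higher at an unadjusted p under 0.05. MRPS2 differed by 0.91 ± 0.24. Of 27 proteasome genes, 4 were higher and 4 lower in both breeds. PSMD1 and PSMD3, regulatory subunits, differed by -0.58 ± 0.17 and 0.38 ± 0.13.

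Glycolysis and glycogen genes were counted in the same way. Of 22 tested, 5 were higher and 11 lower in both breeds, and the median was -0.23. At an unadjusted p under 0.05, 1 was higher and 4 were lower (18.2%, against 12.6% of all genes tested). DESeq2 and the mean of the breed effects each called 4 lower with the same direction in both breeds. Limma voom called 3, and edgeR without Pietrain high pig 6 called 0. In that order these settings called 4.2%, 6.31%, 3.17% and 1.31% of all genes lower. HK2, a hexokinase, differed by -1.96 in Hampshire and -0.12 in Pietrain (edgeR adjusted p of the difference 0.0338), and PPP1R3A, the glycogen-targeting phosphatase subunit, by -1.30 and -0.20 (0.0249 by the same test). PHKA1, the muscle phosphorylase kinase subunit, differed by -0.59 ± 0.18 over both breeds. Of 16 citric acid cycle genes, 4 were higher and 7 lower in both breeds. DLAT, of pyruvate dehydrogenase, differed by -0.43 ± 0.14 and SUCLA2, a succinate-CoA ligase, by -0.44 ± 0.15.

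The label of skeletal muscle matched the fibre markers, which were abundant in every pig. The 11 tested fast fibre genes summed to between 118630 and 206080 CPM, and 4 were higher and 2 lower in both breeds. CKM, muscle creatine kinase, differed by 0.54 ± 0.20 and PVALB, the calcium buffer of fast fibres, by -1 ± 0.37. The 7 tested slow fibre genes varied widely. Their mean level was 9.99 to 10.9 log2 CPM in Hampshire high pigs and 8.63 to 9.40 in low pigs, but 7.11 to 10.3 in Pietrain high pigs and 3.82 to 9.91 in low pigs, with low pig 5 at the bottom. Of these genes 5 were higher and 1 lower in both breeds, and 0 were higher at an unadjusted p under 0.05. MYBPC1, slow myosin-binding protein C, was the 1 that was lower, at -0.47 ± 0.20. The part of fibre composition in other results was not tested. Giant proteins of the sarcomere and membrane skeleton were lower in both breeds for 9 and higher for 1 of 15 tested, with a median of -0.38. With the gene length offset the median was -0.20, and the part of gene length was not tested. NEB, nebulin of the thin filament, differed by -0.78 ± 0.18, with -1.29 in Hampshire and -0.32 in Pietrain, and DMD, dystrophin, by -0.95 ± 0.27, with -1.84 and -0.16. The difference between breeds passed the test for both (edgeR adjusted p = 0.0311 and 0.00438). XIRP2, an actin-binding repeat protein, differed by -0.75 ± 0.22.

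**Figure D5:**
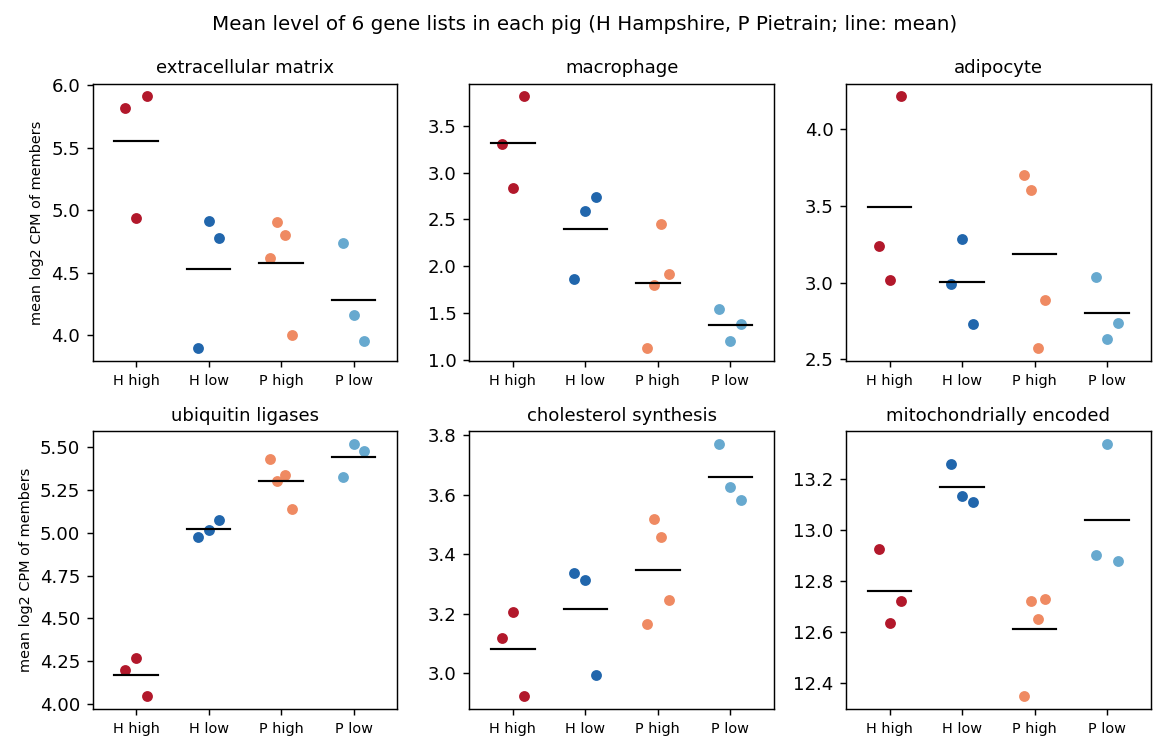
Mean log2 CPM over the tested members of 6 gene lists in each pig, by breed and loin weight group; the line is the mean of a group. The mitochondrially encoded list is lower in every high pig than in every low pig of its breed. The matrix, macrophage, adipocyte and ubiquitin ligase lists overlap between the Pietrain groups, and the adipocyte and cholesterol synthesis lists overlap between the Hampshire groups.

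Stress, clock and vessel lists were counted in the same way. Of 13 tested immediate early genes, 1 was higher and 4 lower in both breeds. IER3 differed by -1.07 ± 0.28 and JUN, a subunit of AP-1, by -0.67 ± 0.28 (-0.30 without Pietrain low pig 3). Of 20 heat shock genes, 5 were higher and 10 lower in both breeds. HSPA4 and HSPA8, chaperones of the HSP110 and HSP70 families, differed by -0.61 ± 0.18 and -0.56 ± 0.18. Of 15 circadian genes, 1 was higher and 7 lower in both breeds. PER2, of the repressor arm of the clock, differed by -0.74 ± 0.19 and NR1D2, a nuclear receptor of the clock, by -0.73 ± 0.29. The hour of slaughter of each pig is not given in the sources used here. Of 11 endothelial markers, 5 were higher and 0 lower in both breeds. EGFL7, a secreted endothelial factor, differed by 0.55 ± 0.23. Smooth muscle and pericyte markers were higher in both breeds for 4 and lower for 1 of 11, Schwann cell and nerve markers higher for 2 and lower for 0 of 6, and blood markers higher for 1 and lower for 1 of 4.

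The other leading genes that were higher in both breeds spanned several roles. F8A1, a partner of huntingtin, differed by 1.04 ± 0.19, with 1.10 in Hampshire and 0.99 in Pietrain. RAB3IL1, an exchange factor for Rab proteins, differed by 1.26 ± 0.24, RHCG, an ammonia channel, by 1.21 ± 0.26, and LCN2, an iron-siderophore binding lipocalin, by 1.56 ± 0.33. The transmembrane proteins TMEM140 and TMEM205 differed by 1.34 ± 0.27 and 0.89 ± 0.19. High and low pigs were apart in both breeds for all of these except TMEM140.

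Among the other leading genes that were lower, FILIP1L, a filamin-interacting protein, differed by -0.66 ± 0.14, FAM185A by -0.88 ± 0.18, SLTM, a modulator of transcription, by -0.84 ± 0.18, and ESCO1, which acetylates cohesin, by -0.91 ± 0.19. GORAB, a golgin-binding protein, EXOG, a mitochondrial nuclease, and BRCA2, a DNA repair protein, were apart in both breeds but at most 1.66 CPM in any pig. Their log2 fold changes were -1.17 ± 0.40, -0.99 ± 0.37 and -1.63 ± 0.53, and BRCA2 was listed at 0 in 2 Hampshire high pigs.

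The study lists 43 genes as shared between its breeds. For some of them, COL6A1, COL6A2 and BBS2 included, the DESeq2 adjusted p it lists for Hampshire is above 0.05. The study chose the 43 on these same pigs, so their direction is not independent evidence. All 43 were tested, 0 were called in the additive edgeR fit, and 24 were higher and 13 lower at an unadjusted p under 0.05. In sign, 25 were higher and 14 lower in both breeds and 4 were opposite. High and low pigs were apart in both breeds for 7 that were higher and 6 that were lower, against 0.616% and 0.803% of all genes tested. DESeq2 called 21 higher and 12 lower with the same direction in both breeds, against 2.2% and 4.2% of all genes. EdgeR without Pietrain high pig 6 called 12 and 9, against 1.47% and 1.31%. TBX2, a T-box repressor, was apart in both breeds: 4.97, 5.00 and 5.82 against 2.14, 3.45 and 1.68 CPM in Hampshire, and 1.52, 1.75, 1.69 and 2.75 against 0.985, 1.03 and 1.21 CPM in Pietrain. Its log2 fold change was 0.98 ± 0.24. CEBPD, a transcription factor of fat cell differentiation and acute phase response, differed by 1.12 ± 0.26. COL6A1 and COL6A2, chains of the collagen around muscle fibres, differed by 0.91 ± 0.33 and 0.96 ± 0.31, and their groups overlapped in both breeds.

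BBS2, of the primary cilium, and ATF5, a stress-response transcription factor, had no common direction here. The study's list gives both as higher in both breeds, so their Pietrain sign here differs from it. Its comparison with real-time PCR gives BBS2 a negative fold change in both breeds. BBS2 was 0.73 in Hampshire and -0.62 in Pietrain on the log2 scale, giving 0.00 ± 0.31 over both breeds. ATF5 was 0.88 and -1.07, giving -0.19 ± 0.39. The difference between the breeds did not pass the test for either (edgeR adjusted p = 0.104 and 0.0732).

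Over all genes, the loin weight effect differed between the breeds for 757 genes (5.9% of genes tested; edgeR adjusted p under 0.05). Among the 534 genes that 3 settings called with the same direction, 98 also differed between the breeds in size. The count of 757 was lower without Hampshire high pig 9 (424) or 10 (491), Hampshire low pig 2 (487) or 3 (379), or Pietrain low pig 5 (489) or 8 (494). In the fit with 4 group means, edgeR gave an unadjusted p under 0.05 in each breed separately with the same sign for 165 genes, 80 higher and 85 lower, and with opposite signs for 91. A check of gene length over all genes is void, since only 77.7% of genes tested had coordinates and at least 80% were needed. In the 9975 genes that had them, given as a description, the median log2 fold change was 0.22 in the tenth with the shortest span (0.48 in Hampshire and 0.00 in Pietrain) and -0.20 in the tenth with the longest (-0.34 and -0.07).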

How the data were processed

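RNA from the longissimus lumborum of 13 female pigs had been sequenced as single-end reads from unstranded libraries, so reads of a gene and its antisense partner cannot be told apart. The authors deposited counts of reads per Ensembl gene, 1 table per breed, not normalised; the submitters' processing notes name FastQC, STAR, RSEM and DESeq2 and the build Sscrofa10.2, with no versions. The authors' own result tables hold fold changes and p-values; only their symbols and coordinates were used. The labels give 4 Pietrain high pigs, all used here. The study's table of loin weights lists 1 fewer, although its methods count 13 pigs in all.

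Both tables were joined on the gene identifier. Genes were filtered by edgeR 4.0.16 filterByExpr over the 4 groups, TMM-normalised and fitted by quasi-likelihood (R 4.3.3), with breed and loin weight as terms. The direction in each breed and the difference between breeds came from a fit with 4 group means, over the same genes. Adjusted p-values are Benjamini-Hochberg over all genes tested. The exact test used log2(CPM + 0.5). Alternatives were DESeq2 1.42.0, limma 3.58.1, other filters and normalisation, the mean of the breed effects, no breed term, a gene length offset, and each pig left out. Named genes were, among those with a symbol, the 12 per direction with the smallest p and at least a 1.2-fold difference of the same direction in each breed, the 6 per direction apart in both breeds with the largest smaller effect, up to 4 per list by p, and 16 genes of the study. Some of these are given only within counts, and some are not reported here. Members and lists were chosen with earlier results of these data known. List medians and counts carry no test. Replicate pairs differed by far more than counting noise (chi-square per degree of freedom 21.9 or more), and with total counts of 11312755 to 20134612 a level near 1 CPM rests on few reads. On simulated data with 3-fold changes in both breeds, the additive fit called 153 of 196 changed genes tested (78.1%). It made 8 false calls, over 12638 genes. A 3-fold difference is 1.58 on the log2 scale. The median absolute log2 fold change in the pigs was 0.51 in Hampshire and 0.24 in Pietrain. Recovery of smaller differences, or of differences unequal between the breeds, was not tested.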

Additional observations from a re-analysis of the deposited data

Results flagged for a closer look

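A single pig of the Pietrain high group stood apart from the other 3 in 9 of 156 gene and list values examined (5.77%), where chance alone marks about 1 in 20. The gap to the nearest pig, as a share of the group's range, was 0.917 for LCN2 (pig 1 at 2.1 CPM, the others at 0.649 to 0.769) and 0.894 for PI16 (pig 1 at 19.0 CPM, the others at 8.31 to 9.45). Pig 1 was also lowest in the mean level of the genes the study listed, with a gap of 0.846. Pig 2 was highest for ND4L (0.863; 1584 CPM against 744 to 859), for the overlapping ND4 (0.866; 13322 CPM against 6742 to 7625) and for the endothelial markers (0.838). Pig 7 was lowest for SLTM (0.856; 30.6 CPM against 38.0 to 39.2) and RICTOR (0.939; 3.00 CPM against 6.22 to 6.43), and highest for CKM (0.877; 25248 CPM against 15946 to 17093). Groups of 3 pigs were not examined in this way.

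The loin weight effect differed between the breeds for 757 genes by edgeR's quasi-likelihood test of the difference (adjusted p under 0.05), among them 15 named genes. As Hampshire minus Pietrain on the log2 scale, the difference was positive for PCOLCE2 at 2.146. It was negative for the glucose and glycogen genes HK2 (-1.841) and PPP1R3A (-1.106), and for the structural genes DMD (-1.68) and NEB (-0.9737). Among signalling genes it was -2.463 for RICTOR, -1.509 for LATS1 and -1.234 for NR3C1. For genes of protein turnover, transport and chromatin it was -1.8 for SETD7, -1.764 for TNPO1, -1.418 for MED1, -1.344 for ITCH, -1.175 for XPOT, -0.9004 for FBXO11 and -0.8948 for PSMD1.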

How the results depend on the processing

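The count of DEGs in the additive edgeR fit was 0 with DESeq2 size factors, without the fold threshold and without a breed term. It was 2 with no filter, and 1 with at least 10 counts in every pig or with a gene length offset (over 9975 genes), all with the same direction in both breeds. DESeq2 called 843 (821 with the same direction), limma voom 757 (742) and the mean of the breed effects 1375 (1150). With 1 pig left out the count ranged from 0 to 357 (0 to 356 with the same direction), the highest without Pietrain high pig 6. Genes differing between breeds numbered 1223 by DESeq2, 1674 by voom, 427 with the length offset, and 379 (without Hampshire low pig 3) to 1052 (without Pietrain high pig 6) with 1 pig left out. The mean of the breed effects leaves the breed difference out of its residual. The cause of the differences in count was not tested for any setting.

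Of 2351 values of 118 named genes under 20 alternatives (the other filters and the missing fold threshold were not run for single genes), 2013 kept direction and side of the threshold, 330 moved past it and 8, of 2 genes, turned direction. BBS2 ranged from -0.195 to 0.0878 and ATF5 from -0.40 to 0.0194 with 1 pig left out, and ATF5 was 0.257 without Pietrain high pigs 6 and 7, an alternative chosen after seeing the data. Of 37 list medians, 26 stayed within 1 SD of the pigs' levels and 25 kept their sign. The satellite cell median was -0.0479 by voom, -0.075 at 10 counts, -0.0412 with no breed term, -0.0649 without pigs 6 and 7, and -0.0726 to 0.149 with 1 pig left out. With no breed term it was -0.255 for nuclear transport, -0.24 for histone methyltransferases, -0.34 for ubiquitin ligases and -0.268 for giant proteins. With the length offset it was 0.175 for cytosolic ribosomal proteins, -0.359 for ubiquitin ligases, 0.0298 for IGF, -0.525 for mitochondrially encoded and -0.197 for giant proteins. Without pigs 6 and 7 it was 0.283 for Schwann cell and -0.0445 for IGF. With 1 pig left out it ranged from -0.202 to -0.0388 for IGF, -0.466 to -0.216 for clock, -0.266 to 0.199 for Schwann cell, -0.489 to -0.278 for histone methyltransferases and -0.338 to 0.103 for Hippo genes. Lists with too few members under a setting (complement, macrophage, lymphocyte, blood, Schwann cell, satellite cell or slow fibre) were not run there. No paired analysis was possible because high and low pigs of a breed share no replicate number.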
